A study of Mus musculus with 6 samples.

Results

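The interleukin receptor chains are 35 mouse genes that were chosen by name, as subunits of the receptors for the interleukins, and not by their measured values. A chain was analysed where the platform annotation gave it a probe set that named no other gene, and the brightest of its probe sets, by mean signal on all 6 arrays, stood for it. This held for 29 of the 35 chains, out of 17097 genes in all. Il1rl1, Il2rg, Il7r, Il11ra1, Il23r and Il22ra1 were not analysed here. The chains were compared between CD11c+ and CD11c- effector memory T cells from the blood of naive female C57BL/6 mice aged 6 to 8 weeks. Cells of both fractions were CD3+ CD62L- CD44high. Each of 3 mice, labelled A, C and D, gave 1 sample of 300 cells per fraction, so that n = 3 mice in each fraction and every CD11c+ sample has its CD11c- partner. All animals had received 3 mg of Depo-Provera, a depot progestin, 5 days before blood was taken according to the sample labels and 6 days before according to the methods. CD11c, encoded by Itgax, is an integrin chain that marks dendritic cells and is also carried by some activated T cells.

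Interleukin receptors are built from chains that are shared in different combinations. The IL-1 family receptors pair a chain that binds the cytokine with an accessory chain and signal through MyD88. The common gamma chain receptors, the gp130 and IL-12 receptors and the IL-10 family receptors signal through Janus kinases and STAT factors. The IL-17 receptors form a family of their own, in which Il17ra is the shared chain. In T cells, IL-12 and IL-18 together drive interferon-γ production by differentiated effector cells, IL-2 and IL-15 sustain effector and memory cells through Il2rb, and IL-6 and IL-27 act through the shared chain gp130, encoded by Il6st.

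Itgax had a log2 RMA signal of 8.97 ± 0.07 in CD11c+ cells and 4.60 ± 1.05 in CD11c- cells (mean ± SD over 3 mice). All 20 measured core T cell genes were above background in both fractions, with a summed linear signal of 10121 to 12281 in CD11c+ cells, against 17779 to 18929 in CD11c- cells, and Cd3e had a mean log2 signal of 10.61 in CD11c+ cells and 11.10 in CD11c- cells. Of all 45141 probe sets, limma with mice as blocks called 432 higher and 76 lower in the CD11c+ fraction (adjusted p under 0.05), and it called none without mouse A (2796 higher and 2767 lower at an unadjusted p under 0.05). Group means no higher than a log2 signal of 5.12 counted as not above background. Of the 20 core T cell genes, limma called 1 higher, Cd8b1, and 2 lower, Cd5 and Cd6, and 17 were lower in each mouse. Cd8b1 had a mean of 10.03 in CD11c+ cells and 8.60 in CD11c- cells. Cd4 had 7.80 in CD11c+ cells and 10.30 in CD11c- cells, a difference of -2.50 (adjusted p = 0.0973), lower in each mouse. Markers of several other cell types moved with the fractions. Among all genes, 1.4% were higher and 0.222% lower at an adjusted p under 0.05 in limma. Of 23 measured markers of monocytes and macrophages 11 were higher, and their summed linear signal was 7247 to 9498 in CD11c+ cells, against 1948 to 2335 in CD11c- cells. Among these 23, 5 were not above background in either fraction, and Ms4a6c was lower in each mouse (difference -1.02, adjusted p = 0.149). Of 12 markers of basophils and mast cells 7 were higher, with a summed signal of 2770 to 4564 in CD11c+ cells, against 200.2 to 230.3 in CD11c- cells, while Kit, Mcpt4, Tpsb2 and Tpsab1 were not above background in either fraction. Of 11 dendritic cell markers 3 were higher, with a summed signal of 2089 to 3349 in CD11c+ cells and 948 to 964 in CD11c- cells. Of 10 B cell markers 2, Pax5 and Fcer2a, were higher, with a summed signal of 698 to 1585 in CD11c+ cells and 616 to 1440 in CD11c- cells. Of the 10, 9 had a positive difference, 6 of them higher in each mouse. Blk, the brightest of the 10 in CD11c- cells with a mean of 8.92, was lower in each mouse (difference -1.28, adjusted p = 0.19). Of 10 markers of platelets and erythroid cells 1, Itga2b, was higher, with a summed signal of 1061 to 1952 in CD11c+ cells and 590.1 to 4193 in CD11c- cells. On the CD11c- array of mouse C, Hba-a1 had 11.79, against 6.21 and 7.07 in CD11c- cells of mice A and D. Of 8 markers of regulatory T cells 4 were lower, with a summed signal of 933 to 1118 in CD11c+ cells and 2553 to 3432 in CD11c- cells. Of 13 NK cell markers 4, Tyrobp, Gzma, Eomes and Klrd1, were higher and 1, Klrb1c, lower. The summed signal of the 13 was 8413 to 9433 in CD11c+ cells and 2871 to 3185 in CD11c- cells. Tyrobp was the brightest of them in CD11c+ cells, with a mean of 11.60, against 6.88 in CD11c- cells, and Ncr1 was not above background in either. None of 11 neutrophil markers passed (1 higher and 0 lower at an unadjusted p under 0.05 in limma), and 9 were above background in neither fraction. Of 9 markers of type 2 innate lymphoid cells 1 was higher, Gata2, which is also on the basophil list, and 1 lower, Gata3. The part of these cells in the results below was not tested. In such sorted samples, fewer cells that express a gene and less of its RNA per cell cannot be told apart.

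At an adjusted p under 0.05, 3 of the 29 chains, Il18rap, Il12rb2 and Il13ra1, were higher in CD11c+ cells. None was lower by the same limma test, though 6 were higher and 10 lower at an unadjusted p under 0.05, which 7.38% (higher) and 7.44% (lower) of all genes also reached. Among all genes, 1.4% were higher and 0.222% lower at an adjusted p under 0.05, against 10.3% and 0% of the chains. For 5 chains every CD11c+ array lay above every CD11c- array, and for 9 every CD11c+ array lay below. These are 17.2% and 31% of the chains, against 7.48% and 12.5% of all genes. The log2 differences of the chains, CD11c+ minus CD11c-, had a median of -0.08, as against -0.09 for all genes. Their quartiles were -0.65 and 0.23 for the chains and -0.23 and 0.08 for all genes, over dim and bright genes alike. Of the 8552 genes above background in at least 1 fraction, 2.76% were higher and 0.444% lower at an adjusted p under 0.05. At an unadjusted p under 0.05 in limma, 1118 of these 8552 were higher and 1087 lower, larger shares than among all genes. Among the same 8552 genes 12.6% had every CD11c+ array above and 13.3% every CD11c+ array below, and the quartiles were -0.32 and 0.23. Above background in at least 1 fraction were 19 of the 29 chains. The shares and quartiles given for the chains cover all 29, not these 19 alone. Centring the arrays on the 4 CD3 chain genes, here called the CD3 scale, adds 0.74 to every difference. On it 15 chains were higher and none lower, beside 22412 higher and 232 lower of all probe sets, and 11 of the 17 chains with a negative difference became positive. The 6 that stayed negative were Il1r1, Il9r, Il27ra, Il12rb1, Il20rb and Il17re.

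**Figure D1:**
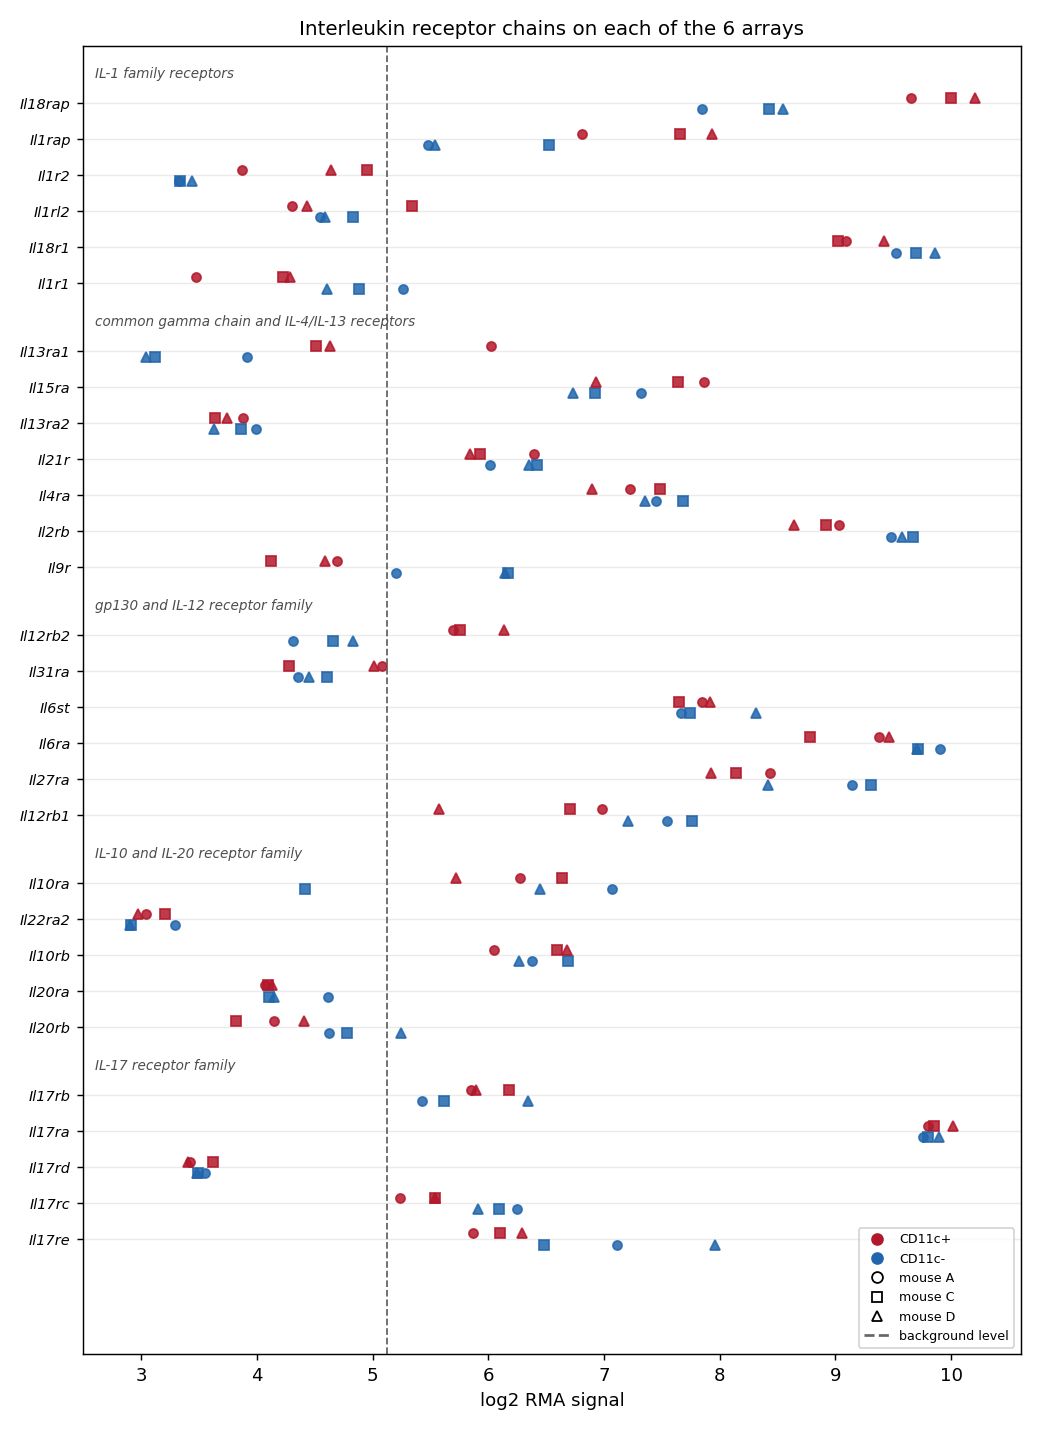
Log2 RMA signal (horizontal axis) of the 29 interleukin receptor chains (vertical axis, by family) on the 6 arrays, red for CD11c+, blue for CD11c-, marker shape for the mouse, with the background level of 5.12 dashed. Il18rap lies between 9.65 and 10.20 in CD11c+ cells, above its CD11c- values of 7.85 to 8.55, and Il17ra, the brightest chain, overlaps between the fractions.

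**Figure D2:**
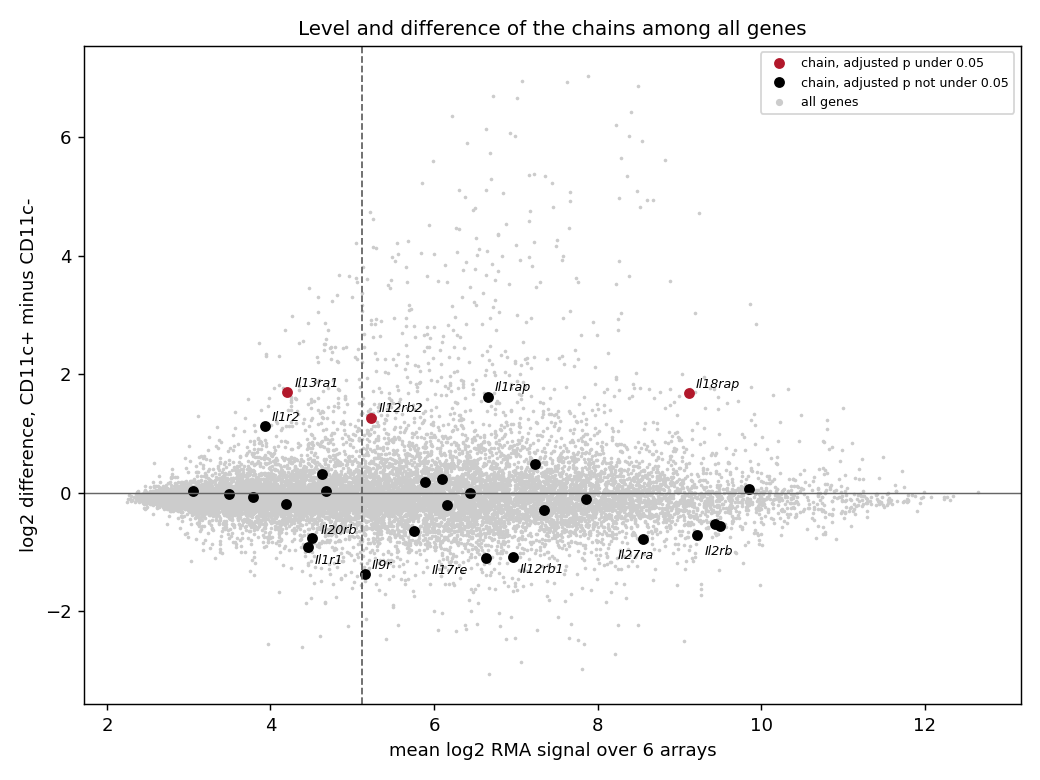
Mean log2 RMA signal over 6 arrays (horizontal axis) against the log2 difference CD11c+ minus CD11c- (vertical axis) for all 17097 genes in grey and the 29 chains as large points, red where the adjusted p was under 0.05. Il18rap is the one bright chain among the 3 red points, and the chains span -1.37 to 1.70.

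The smallest adjusted p among the chains was in the IL-18 receptor. Il18rap, the accessory chain that IL-18 signalling requires, had log2 signals of 9.65, 10.00 and 10.20 in CD11c+ cells of mice A, C and D, against 7.85, 8.43 and 8.55 in CD11c- cells. The groups did not overlap, and the rise was 1.80, 1.57 and 1.66 within the 3 mice. The log2 difference was 1.68 (standard error 0.13, adjusted p = 0.0222), a 3.2-fold higher signal in CD11c+ cells. Its second probe set gave 1.52 (adjusted p = 0.0343). Without 1 mouse at a time the difference stayed between 1.61 and 1.73, with an adjusted p of 0.0615 to 0.157. Il18r1, the chain that binds IL-18, had signals of 9.09, 9.02 and 9.42 in CD11c+ cells and 9.52, 9.70 and 9.87 in CD11c- cells. It was thus a bright gene that was slightly lower in CD11c+ cells of each mouse, with a difference of -0.52 (adjusted p = 0.213), or 0.22 on the CD3 scale.

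The promoter of Il18rap is shown with those of the other called chains, Il12rb2 and Il13ra1, since these are the 3 chains that passed the test. Each run covers 250 bases before and 50 after the start site and was taken from RefSeq, build GRCm38.p6, at chr1:40515112-40515411 on the plus strand for Il18rap, chr6:67376139-67376438 on the minus strand for Il12rb2 and chrX:36111858-36112157 on the plus strand for Il13ra1. Capitals mark matches, on either strand, to 5 short motifs, namely AGGTGT of T-box factors, TGANTCA of AP-1, TTCNNNGAA of STAT factors, TGTGGT of RUNX factors and GAGGAA of PU.1, of which none overlapped another here.
Il18rap: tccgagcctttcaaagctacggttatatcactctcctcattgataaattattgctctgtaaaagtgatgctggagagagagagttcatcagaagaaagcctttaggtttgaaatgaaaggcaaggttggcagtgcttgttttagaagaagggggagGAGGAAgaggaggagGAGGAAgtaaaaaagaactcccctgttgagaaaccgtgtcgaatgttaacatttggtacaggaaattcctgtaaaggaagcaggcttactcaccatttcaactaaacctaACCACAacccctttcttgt
Il12rb2: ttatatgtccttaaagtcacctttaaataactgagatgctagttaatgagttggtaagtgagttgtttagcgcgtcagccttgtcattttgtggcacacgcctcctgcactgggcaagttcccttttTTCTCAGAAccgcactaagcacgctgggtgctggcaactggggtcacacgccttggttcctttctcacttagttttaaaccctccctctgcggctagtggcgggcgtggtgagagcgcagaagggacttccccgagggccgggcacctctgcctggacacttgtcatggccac
Il13ra1: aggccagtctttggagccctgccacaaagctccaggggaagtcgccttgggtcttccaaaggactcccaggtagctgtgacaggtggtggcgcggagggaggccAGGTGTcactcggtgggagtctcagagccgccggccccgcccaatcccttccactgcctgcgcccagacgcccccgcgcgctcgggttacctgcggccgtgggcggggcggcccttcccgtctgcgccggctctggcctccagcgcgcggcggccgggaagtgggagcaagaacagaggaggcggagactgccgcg
Il18rap held 2 matches to the PU.1 motif, 94 and 79 bases before the start site, and 1 to the RUNX motif after it. Il12rb2 held 1 match to the STAT motif and Il13ra1 1 to the T-box motif. Of 32851 promoters of this length, 28.3% held the PU.1 motif, 16.8% the RUNX motif, 13.7% the T-box motif, 8.3% the STAT motif and 7.81% the AP-1 motif. No motif was shared by all 3 promoters.

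None of the other IL-1 family chains passed, and their differences had both signs. Il1rap, the accessory chain shared by the receptors for IL-1, IL-33 and IL-36, had signals of 6.81, 7.66 and 7.94 in CD11c+ cells, against 5.47, 6.52 and 5.54 in CD11c- cells. The groups did not overlap, and the log2 difference of 1.62 (standard error 0.29) was nearly that of Il18rap, with a wider spread between mice, and did not pass (adjusted p = 0.115, or 0.517 with its probe sets averaged). Its 4 other probe sets were dim, with means of 2.77 to 4.13 over the 6 arrays and differences of -0.24 to 0.63. Il1r2, the decoy receptor that binds IL-1 without signalling, had 3.87, 4.95 and 4.64 in CD11c+ cells and 3.32, 3.33 and 3.44 in CD11c- cells, a difference of 1.12 (adjusted p = 0.159). Il1r1, the signalling receptor of IL-1, had 3.47, 4.23 and 4.29 in CD11c+ cells and 5.26, 4.88 and 4.61 in CD11c- cells, a difference of -0.92 (adjusted p = 0.344), or -0.49 without mouse A. Neither group mean was above background for Il1r1, Il1r2 or Il1rl2. Il1rl2, the IL-36 receptor, had a difference of 0.04 (adjusted p = 0.954). Its second probe set, with a mean of 3.69 over the 6 arrays, gave -0.58 (adjusted p = 0.244) and was lower in each mouse.

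Among the common gamma chain receptors and their relatives, Il13ra1 was higher in CD11c+ cells at low signal. This chain binds IL-13 and joins Il4ra in the type II receptor for IL-4 and IL-13. Its signals were 6.02, 4.51 and 4.63 in CD11c+ cells, against 3.91, 3.12 and 3.04 in CD11c- cells. The groups did not overlap, and the difference was 1.70 (standard error 0.19, adjusted p = 0.049). Neither group mean was above background, so no fold is given, and mouse A had the highest value in both fractions. The B cell gene Cd79a, named here for this array after its values were seen, was also highest on the CD11c+ array of mouse A, with 8.51, 6.91 and 6.87 in CD11c+ cells and 4.67, 4.91 and 4.80 in CD11c- cells, and its part in the result was not tested. Of the 4 other probe sets of Il13ra1, 3 were higher in each mouse, with differences of 1.91 (adjusted p = 0.065), 1.26 (adjusted p = 0.426) and 1.16 (adjusted p = 0.234), and the fourth had 0.13. In those 3, mouse A had the lowest CD11c+ value, with 4.23, 3.42 and 3.51 in that order. The peak of mouse A in CD11c+ cells was thus limited to the chosen probe set. Without 1 mouse at a time the adjusted p was 0.0928 to 0.177, and without the mouse block it was 0.172. Il4ra itself had -0.29 (95% interval -0.65 to 0.07, adjusted p = 0.471). Il13ra2, a decoy for IL-13, had -0.08 and was not above background in either fraction.

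Il2rb, the chain that IL-2 and IL-15 share, is one of the brightest chains. Its signals were 9.03, 8.92 and 8.65 in CD11c+ cells and 9.48, 9.67 and 9.58 in CD11c- cells, without overlap. The difference was -0.71 (standard error 0.16, adjusted p = 0.161), and its 2 other probe sets gave -0.65 and -0.63, all 3 lower in each mouse. On the CD3 scale its difference was 0.03. Il15ra, which presents IL-15, had 7.86, 7.64 and 6.93 in CD11c+ cells and 7.32, 6.92 and 6.74 in CD11c- cells. Its groups overlapped although every mouse had the higher value in CD11c+ cells, and the difference was 0.49 (adjusted p = 0.316). Il9r, the receptor for IL-9, had 4.69, 4.13 and 4.59 in CD11c+ cells, against 5.20, 6.17 and 6.15 in CD11c- cells. This was the most negative difference among the 29 chains in this fit, -1.37 (standard error 0.33, adjusted p = 0.188). Its CD11c+ mean was not above background. With dim arrays taken at that level, the mean was 1.65-fold lower in CD11c+ cells. The 95% interval of the difference was -2.25 to -0.49. Il21r had -0.21 (95% interval -0.83 to 0.41) and went both ways among the mice.

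In the IL-12 receptor the signalling chain rose, and the shared chain did not pass. Il12rb2, which pairs with Il12rb1 to form the IL-12 receptor and is induced in type 1 effector cells, had signals of 5.70, 5.75 and 6.13 in CD11c+ cells and 4.31, 4.66 and 4.83 in CD11c- cells. The groups did not overlap and the 3 mice gave 1.38, 1.10 and 1.31. The difference was 1.26 (standard error 0.14, adjusted p = 0.0456). Its CD11c- mean was not above background, and against that level it was at least 1.67-fold higher in CD11c+ cells. The adjusted p was 0.119 to 0.205 without 1 mouse at a time, 0.0576 after cyclic loess, 0.0577 with arrays centred on their median, 0.0565 with a trended variance and 0.0504 with a robust variance, while the other 5 of these 9 settings kept the call. Il12rb1, which the IL-12 and IL-23 receptors share, had 6.98, 6.70 and 5.57 in CD11c+ cells, against 7.54, 7.76 and 7.21 in CD11c- cells. These did not overlap either, in the opposite order, with a difference of -1.09 (standard error 0.24, adjusted p = 0.166).

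Il6ra and Il27ra, which work with gp130, had lower values in CD11c+ cells of each mouse, but neither passed the test. Il6ra, the IL-6 receptor and one of the brightest chains, had 9.38, 8.78 and 9.46 in CD11c+ cells and 9.90, 9.72 and 9.71 in CD11c- cells, a difference of -0.57 (adjusted p = 0.304), and its second probe set gave -0.87 (adjusted p = 0.392). On the CD3 scale it was 0.17. Il27ra, the IL-27 receptor, had 8.44, 8.14 and 7.92 in CD11c+ cells, against 9.14, 9.30 and 8.41 in CD11c- cells. Its groups overlapped by the CD11c- array of mouse D, and the difference was -0.79 (adjusted p = 0.176). Il6st, which encodes gp130, had -0.11 (95% interval -0.55 to 0.34, adjusted p = 0.826), with signals between 7.65 and 8.32 on all arrays. Its other probe sets gave -0.06 (adjusted p = 0.937) and -0.73 (adjusted p = 0.6), and both went both ways among the mice. Il31ra, the IL-31 receptor, had 0.32 (adjusted p = 0.675) and was not above background in either fraction.

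**Figure D3:**
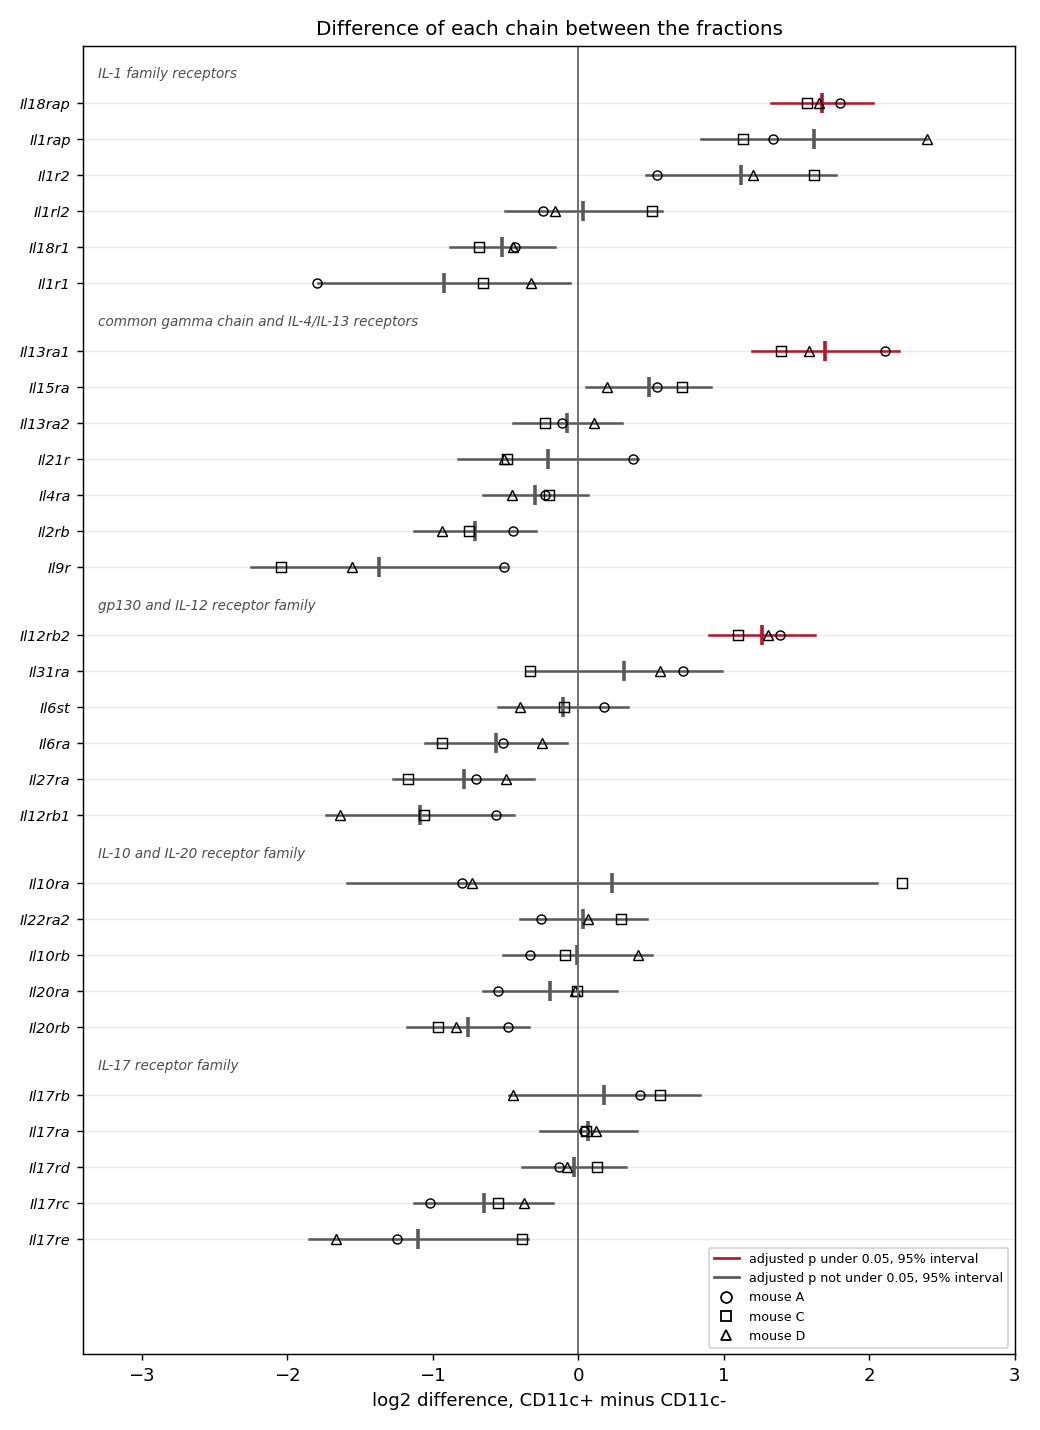
Log2 difference CD11c+ minus CD11c- (horizontal axis) of the 29 chains (vertical axis, by family), with a tick for the limma estimate, a line for its 95% interval, red where the adjusted p was under 0.05, and open symbols for the 3 mice. Il18rap, Il13ra1 and Il12rb2 are red, at 1.68, 1.70 and 1.26, and Il10ra has the widest interval, from -1.59 to 2.05.

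None of the 5 IL-10 family chains passed (0 higher and 1 lower at an unadjusted p under 0.05 in limma, a share to be read against the same 7.38% and 7.44% of all genes). Il10ra, the IL-10 receptor chain that binds the cytokine, had 6.27, 6.64 and 5.72 in CD11c+ cells, against 7.07, 4.42 and 6.45 in CD11c- cells. The CD11c- array of mouse C stood far below those of the other mice, and the difference was 0.23 (95% interval -1.59 to 2.05), or -0.77 without mouse C. Il10ra is described because of this array and was chosen after its values were seen. Il10rb, which the receptors for IL-10 and IL-22 share, had -0.00449 (95% interval -0.52 to 0.51, adjusted p = 0.994). Il20rb, a chain of the IL-20 and IL-24 receptors, had 4.15, 3.82 and 4.41 in CD11c+ cells and 4.63, 4.78 and 5.25 in CD11c- cells, a difference of -0.76 (adjusted p = 0.146) without overlap. Its partner Il20ra had -0.19 and Il22ra2, a soluble receptor that binds IL-22, had 0.04. These 3 chains were not above background in either fraction.

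None of the 5 IL-17 receptor chains passed (0 higher and 2 lower at an unadjusted p under 0.05 in limma, against 7.38% and 7.44% of all genes). Il17ra, the shared chain, was the brightest of the 29 chains, with 9.80, 9.85 and 10.02 in CD11c+ cells and 9.76, 9.80 and 9.90 in CD11c- cells. The groups overlapped, and the difference was 0.07 (95% interval -0.26 to 0.40, adjusted p = 0.842). Il17re, the IL-17C receptor, had 5.87, 6.10 and 6.29 in CD11c+ cells, against 7.12, 6.48 and 7.96 in CD11c- cells, without overlap. Its difference was -1.10 (standard error 0.28, adjusted p = 0.211), and its second probe set gave -1.90 (adjusted p = 0.111), lower in 3 of 3 mice. Il17rc, the partner of Il17ra for IL-17A and IL-17F, had -0.65 (adjusted p = 0.237) without overlap, or 0.09 on the CD3 scale, and a dim second probe set had -0.00873. Il17rb, the IL-25 receptor, had 0.18 (95% interval -0.48 to 0.84), and Il17rd had -0.03 and was not above background in either fraction.

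Chains of 1 receptor were set side by side as the change of their log2 ratio within each array, which no scaling of whole arrays can move. The pairs come from receptor biology and were drawn up after the values were known, so they are given without a test, and 3 mice could reach no p below 0.25 in a two-sided exact sign-flip test. The ratio of Il18rap to Il18r1 was higher in CD11c+ cells by 2.23, 2.25 and 2.11 in mice A, C and D, a mean of 2.20 ± 0.08 (SD), or 4.58-fold. Both chains are bright, and this was the pair with the smallest spread among the 13. The ratio of Il12rb2 to Il12rb1 was higher by 2.35 ± 0.53, and that of Il1rap to Il1r1 by 2.54 ± 0.69, or 1.28 with the mean of each gene's probe sets. The ratio of Il1r2, the decoy, to Il1r1 was higher by 2.04 ± 0.45, with both chains below background. That of Il13ra1 to Il4ra was higher by 1.99 ± 0.37 and that of Il15ra to Il2rb by 1.20 ± 0.24. These 6 pairs were higher in 3 of 3 mice. Il12rb2 in CD11c- cells and Il1r1 and Il13ra1 in both fractions were not above background, so the sizes of these ratios rest on dim signals and are given without a fold. The ratios of Il27ra to Il6st, at -0.68 ± 0.52, and of Il17rc and Il17re to Il17ra, at -0.72 ± 0.30 and -1.17 ± 0.68, were lower in 3 of 3 mice. That of Il27ra rests on the chosen Il6st probe set, with a difference of -0.11, where another Il6st probe set had -0.73. The remaining 4 pairs, for IL-6, IL-10, IL-20 and IL-25, went both ways among the mice.

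**Figure D4:**
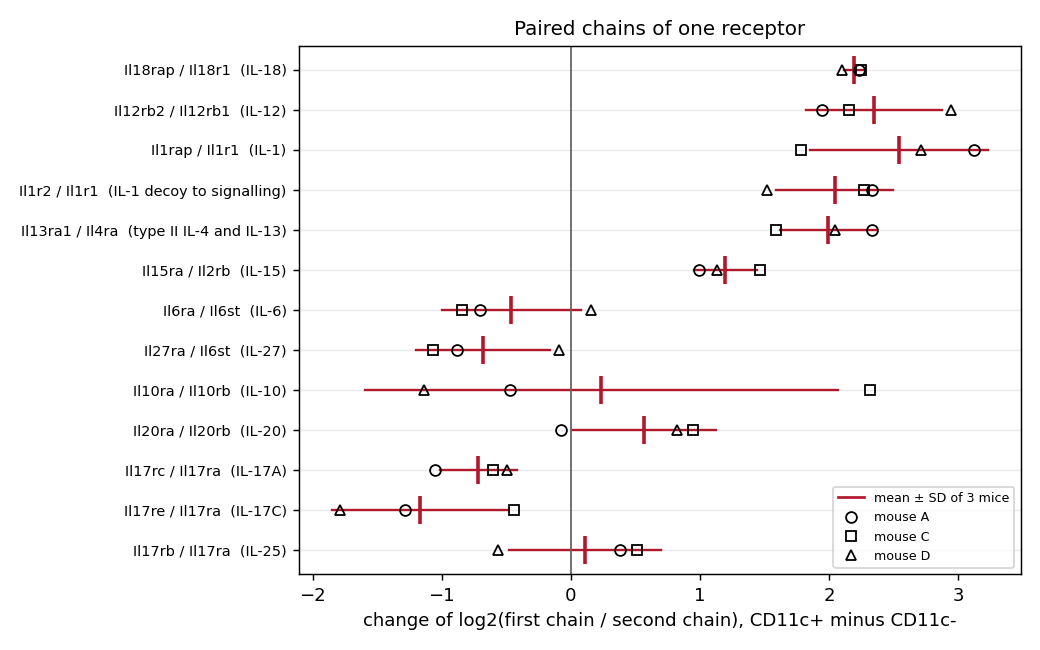
Change of the log2 ratio of 2 chains of a receptor, CD11c+ minus CD11c- (horizontal axis), for 13 pairs (vertical axis), with open symbols for the 3 mice, red ticks for the mean and red lines for the SD. The pair Il18rap and Il18r1 lies at 2.20 with the 3 mice close together, and the 3 IL-17 pairs lie at -0.72, -1.17 and 0.11.

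Several chains are neighbours in the genome, by the gene order of the GRCm38.p6 annotation. On chromosome 1 Il1r2, Il1r1, Il1rl2, Il1rl1, Il18r1 and Il18rap follow each other with no other protein-coding gene between them. The 5 of these measured had differences of 1.12, -0.92, 0.04, -0.52 and 1.68 in that order. The adjoining genes Il1r2 and Il1r1 thus had opposite signs, and so had Il18r1 and Il18rap, the last pair with the same sign on the CD3 scale. On chromosome 6 Il17re and Il17rc are neighbours and had -1.10 and -0.65. Il12rb2, also on chromosome 6, lies next to Il23r, which was not analysed here. On chromosome 10 Il22ra2 and Il20ra are neighbours, with 0.04 and -0.19. On chromosome 13 Il6st and Il31ra are neighbours, with -0.11 and 0.32, and on chromosome 7 Il4ra and Il21r, with -0.29 and -0.21. None of these chains other than Il18rap and Il12rb2 passed the test, and the arrangement was not tested.

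The cytokines themselves were mostly dim. Of 28 interleukin genes measured, 1 was higher, none lower and 27 did not pass, against 1.4% higher and 0.222% lower of all genes. At an unadjusted p under 0.05 in limma 6 were higher and 1 lower, against 7.38% and 7.44% of all genes. For 6 every CD11c+ array lay above every CD11c- array and for 4 below, against 7.48% and 12.5% of all genes. The median log2 difference was -0.02, and 22 were not above background in either fraction. Il1b, a ligand of Il1r1 and Il1r2, was the one that passed, with a mean log2 signal of 7.20 in CD11c+ cells, against 4.55 in CD11c- cells, a difference of 2.66 (adjusted p = 0.0258). Its CD11c- mean was not above background, and set against that level it was at least 4.23-fold higher in CD11c+ cells. Il15, dim in CD11c- cells too, had 2.51 (adjusted p = 0.115, at least 1.73-fold higher), Il2 had -0.83 (adjusted p = 0.1) and Il21 had -0.34 (adjusted p = 0.444). None of 3 soluble antagonists passed (0 at an unadjusted p under 0.05, in limma). Of 13 further receptor chains outside the set, Csf2rb2, a beta chain of the IL-3 receptor, was higher by 6.66 (adjusted p = 0.00554). Csf2rb, the beta chain that the receptors for IL-3, IL-5 and GM-CSF share, was higher by 5.35 (adjusted p = 0.00554). Csf2rb2 was not above background in CD11c- cells and was at least 37.4-fold higher as a bound. The other 11 did not pass, among them Il2ra with -1.61 (adjusted p = 0.19) and Sigirr, an inhibitory IL-1 family receptor, with -0.72 (adjusted p = 0.133).

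Of the genes that carry these signals inside the cell, none passed. Among 18 genes of Janus kinases, STAT factors and SOCS proteins, 0 were higher and 0 lower in limma (1 higher and 4 lower at an unadjusted p under 0.05, against 7.38% and 7.44% of all genes). Their median difference was 0.03. Jak2 had 0.97 (adjusted p = 0.1) and Tyk2, the kinase of the IL-12 receptor with Jak2, 0.32 (adjusted p = 0.623). Socs2 had -0.95 (adjusted p = 0.265) and Cish, a target and inhibitor of STAT5 signalling, -0.83 (adjusted p = 0.0955). Among 11 genes of MyD88 and Act1 signalling, 0 were higher and 0 lower in limma (3 higher and 1 lower at an unadjusted p under 0.05, with the same shares of all genes). Their median difference was 0.07. Irak3 had 1.62 (adjusted p = 0.229), Myd88 0.65 (adjusted p = 0.253) and Traf3ip2, which encodes the IL-17 adaptor Act1, -0.68 (adjusted p = 0.197).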

How the data were processed

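Both fractions of 3 mice were measured on 6 single-colour Affymetrix mouse genome strip arrays after amplification of the RNA. The deposited values are log2 signals that the authors obtained by RMA from the scanner output, as the methods and the submitters' notes state. Tool versions were not given in the sources used here. Since RMA gives all arrays like distributions, a change of total RNA per cell cannot be seen, and amplification can widen the spread of dim genes. Array medians were 4.40 to 4.54.

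limma 3.58.1 in R 4.3.3 was fitted to all 45141 probe sets (104 of them controls), with mice as blocks and two-sided Benjamini-Hochberg adjusted p-values. Differences are CD11c+ minus CD11c-. The labels pair the samples by mouse, and the deviations of the 2 arrays of a mouse had correlations of 0.122, 0.0758 and 0.109. The background level, 5.12, was set at the percentile 95 of 40 genes that mark other tissues. An "at least" fold takes each dim array at that level or its own value, whichever is higher. It allows for dim signal only and takes no account of the spread between mice. Of the probe sets, 28898 carried 1 gene symbol, 551 several and 15692 none. The number of arrays limits precision, since 2 residual degrees of freedom remain.

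Values on every array are given for chains past the threshold, for the 5 most positive and the 5 most negative differences and for the 5 brightest. Il15ra, Il20rb and Il10ra were added after their values were seen. From other lists, the 2 largest and the 2 smallest differences and genes past the threshold could be named. Hba-a1 was named after its values were seen. Members, lists and motifs were chosen with earlier results of these data known. The fit was tested on simulated data. The alternatives were the block, normalization, filters, variance model, probe set choice, threshold and leaving out a mouse.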

Additional observations from a re-analysis of the deposited data

How the results depend on the processing

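Il18rap passed in each alternative other than those that left out a mouse, and every chain that could be tested kept its direction with the other blocks, variance models and filters. Of the 3 calls, 1 remained after cyclic loess, with arrays centred on their median and with a robust variance (Il18rap each time), 15 chains were higher with arrays centred on the CD3 chains, and 0 without any 1 mouse (5 to 6 at an unadjusted p under 0.05). Il13ra1 was lost without the replicate block (adjusted p = 0.172) and with a random block (adjusted p = 0.114), and its chosen probe set lay under both filters on dim probe sets, so it has no value there. The median of the chains, -0.08, was 0.66 with arrays centred on the CD3 chains, -0.21 over the 19 chains above background and -0.19 with probe sets averaged per gene. The medians of all genes in these 3 settings were 0.65, -0.08 and -0.09.

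Over all probe sets, 432 were higher and 76 lower, against 684 and 211 without the replicate block, 812 and 316 with a random block, 22412 and 232 on the CD3 scale, 684 and 207 with a trended variance, and 845 and 380 at an adjusted p under 0.1. The lower calls alone moved by more than 1.5 times after cyclic loess (41) and with the filters at the median (140) and at background (189). With probe sets averaged per gene, 411 genes were higher and 151 lower, against 240 and 38 genes in the main fit with 1 probe set per gene. Leaving out a mouse gave 0 to 348 higher and 0 to 44 lower.

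With arrays centred on the CD3 chains the differences that turned positive were 0.22 for Il18r1, 0.0293 for Il2rb, 0.45 for Il4ra, 0.66 for Il13ra2, 0.53 for Il21r, 0.17 for Il6ra, 0.63 for Il6st, 0.73 for Il10rb, 0.55 for Il20ra, 0.091 for Il17rc, 0.71 for Il17rd. Of these chains, Il13ra2, Il20ra and Il17rd were not above background in either fraction. The other turns of sign were in chains that did not pass in either setting. After cyclic loess Il13ra2 had 0.00731, Il10rb 0.0713 and Il17rd 0.0575. With arrays centred on their median Il10rb had 0.0241 and Il17rd 0.00227, and with probe sets averaged per gene Il1rl2 had -0.27 and Il10rb 0.0698. Over the 3 fits that left out a mouse, differences of both signs were found for Il10rb (-0.21 to 0.16), Il17rd (-0.10 to 0.025), Il1rl2 (-0.20 to 0.17), Il10ra (-0.77 to 0.75), Il22ra2 (-0.0936 to 0.18), Il17rb (-0.0118 to 0.49) and Il6st (-0.25 to 0.0425). Except for filters and left-out samples, the causes were not tested.

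With the highest of the 40 genes of other tissues, Csn2 at 7.44, as background, a level chosen after seeing the data, 9 chains lay above it in CD11c+ cells and 9 in CD11c- cells, against 18 and 18 at 5.12. Il12rb2 and Il13ra1 lay below it in both.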
